A study of Mus musculus with 8 samples.

Results

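Genes that encode 8 growth factors and colony-stimulating cytokines of T cells were followed through naive CD4 T cells and effector Th1, Th2 and Th17 cells by RNA sequencing. They were *Il2*, *Il3*, *Il9*, *Csf1*, *Csf2*, *Lif*, *Osm* and *Areg*, chosen by name, and all 8 were among the 23284 genes listed in each library. DO11.10 Tg mice, a strain in which the TCR of CD4 T cells recognises a peptide of OVA, supplied all cells, and each of the 4 groups had 2 libraries. Naive cells were splenic CD4 T cells sorted as CD44low and CD62Lhi. The 3 effector groups were grown from such cells for 6 days with OVA peptide and irradiated splenocytes depleted of T cells. Th1 cultures held IL-12 (100 U/ml), IL-2 (30 U/ml) and an antibody against IL-4 (1 μg/ml). Th2 cultures held IL-4 (100 U/ml), IL-2 (30 U/ml) and an antibody against IFNγ (10 μg/ml). Th17 cultures held both antibodies (10 μg/ml each) with IL-23, IL-6 and IL-1β (10 ng/ml each), and no IL-2 is named for them. The subset and the additives of its culture therefore cannot be told apart, and feeder splenocytes were present in the effector cultures only. The sources used here do not say whether the 2 libraries of a group came from separate mice or cultures, so the p-values measure the spread between these libraries, which may be technical.

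Activated helper T cells release small proteins that make other cells divide, survive or mature. IL-2 is the classical growth factor of T cells and IL-9 acts on T cells and mast cells. IL-3, GM-CSF (*Csf2*) and M-CSF (*Csf1*) drive the growth of myeloid cells. LIF and oncostatin M (*Osm*) belong to the IL-6 family and signal through the shared chain gp130 (*Il6st*), and amphiregulin (*Areg*) is a ligand of the EGF receptor. Many of these messages are short-lived, since AU-rich stretches in their 3′UTRs are bound by decay factors such as the ZFP36 proteins.

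The libraries held 14463466 to 21058286 sequenced fragments, as implied by the confidence intervals of the deposited values, and both naive libraries held fewer than any effector library. Across genes, the replicates correlated within each group with a Pearson's r of 0.953 to 0.960 on the log2(FPKM + 1) scale, where FPKM counts the fragments of a gene relative to its length in exons and to library depth. Genes are not independent replicates, so r describes the libraries only. Over 5 listed genes, the T cell markers summed to an FPKM of 1993 to 2030 in naive, 1473 to 1642 in Th1, 1228 to 1242 in Th2 and 1094 to 1255 in Th17. The lineage markers were high in their own subset, with *Ifng* at 708 ± 133 in Th1, *Il13* at 147 ± 5.16 in Th2 and *Il17f* at 996 ± 23.9 in Th17 (mean FPKM ± SD, n = 2). Summed over 6 myeloid markers, FPKM was 13.2 to 14.5 in naive, 10.2 to 11.6 in Th1, 25.4 to 34.4 in Th2 and 19.3 to 19.5 in Th17. The 5 B cell markers summed to 2.32 to 12.1 and 5 dendritic cell markers to 0.728 to 3.90. The 4 stroma markers summed to 59.6 to 66.8 in naive, 22.7 to 24.9 in Th1, 44.2 to 48.7 in Th2 and 37.9 to 40.4 in Th17. In each group, only 1 of these 4 had a mean FPKM of at least 1. The neutrophil precursor markers *Mpo* and *Elane*, with *S100a8*, summed to 7.65, 6.52 and 7.28 in replicate 1 of Th1, Th2 and Th17 and to 0.181, 0.0425 and 0.545 in replicate 2. Of 6 mast cell and basophil markers, *Fcer1a* was listed at 0 in every library and the sum was at most 3.78. The naive libraries held *Cd8b1* at 71.6 with *Cd8a* at 2.36. In such bulk samples, fewer cells of a type and less RNA per cell cannot be told apart.

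The 3′UTR windows below show ATTTA pentamers, letters that occur in AU-rich stretches. Each is the stretch of 30 bases with the most ATTTA pentamers in the gene's 3′UTR, from GENCODE M21 transcripts on GRCm38, written 5′ to 3′ as DNA with every ATTTA in capitals.
*Csf2* (chr11:54247329-54247358, minus strand): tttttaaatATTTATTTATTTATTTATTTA
*Il2* (chr3:37121040-37121069, minus strand): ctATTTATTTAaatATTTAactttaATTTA
*Areg* (chr5:91148369-91148398, plus strand): ataATTTATTTAatATTTAagtgttATTTA
*Il9* (chr13:56479329-56479358, minus strand): agatgctATTTAttctATTTAttgaATTTA
*Lif* (chr11:4272414-4272443, plus strand): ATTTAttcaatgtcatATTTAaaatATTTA
*Osm* (chr11:4240939-4240968, plus strand): aatccgttttatATTTAtaaggcctATTTA
*Csf1* (chr3:107741109-107741138, minus strand): tttatataaggtcATTTAaatatctATTTA
*Il3* (chr11:54265307-54265336, minus strand): ctttatgccatcaaatgtcttatcaATTTA

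Pentamers overlapped end to end in *Csf2*, whose 3′UTR of 317 bases held 9 of them. *Il2* and *Lif* held 7 each, *Osm* 6, *Csf1* and *Areg* 4 each, *Il9* 3 and *Il3* 1. Per kilobase of 3′UTR, the counts were 34.9 for *Il9*, 28.4 for *Csf2*, 15.8 for *Areg*, 12.0 for *Il2*, 9.90 for *Il3*, 5.90 for *Osm*, 2.20 for *Lif* and 1.89 for *Csf1*. All 8 were above the median of 1.20 over the 20066 genes with a 3′UTR of at least 50 bases, and 63.2% of those genes had at least 1 pentamer. The longer TTATTTATT was present in *Csf2* (4 matches), *Lif* (2), *Il2* (1) and *Areg* (1), and in 7.10% of all genes. A match is a description of the letters and not of binding. The annotated 3′UTR of *Il3* was only 101 bases long, which limits its count.

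*Csf1* and *Lif* stood in reverse order among the 3 subsets, as given below, and the windows from 250 bases before to 50 bases after their starts are shown for that reason. They are RefSeq sequences of GRCm38.p6 in 5′ to 3′ order, and the capitals mark matches on either strand to the motifs of AP-1 (TGANTCA), NFAT (its core, GGAAA), STAT (TTCNNNGAA) and κB (GGGNNNNNCC) and to the TATA box (TATAAA).
*Csf1* (chr3:107760420-107760719, minus strand): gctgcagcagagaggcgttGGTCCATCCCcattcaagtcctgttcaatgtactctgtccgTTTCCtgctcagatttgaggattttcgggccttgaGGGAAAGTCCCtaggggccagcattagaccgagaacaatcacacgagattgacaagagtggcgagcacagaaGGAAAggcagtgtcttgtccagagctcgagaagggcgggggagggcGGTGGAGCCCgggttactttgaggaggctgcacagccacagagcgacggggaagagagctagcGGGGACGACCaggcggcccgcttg
*Lif* (chr11:4257318-4257617, plus strand): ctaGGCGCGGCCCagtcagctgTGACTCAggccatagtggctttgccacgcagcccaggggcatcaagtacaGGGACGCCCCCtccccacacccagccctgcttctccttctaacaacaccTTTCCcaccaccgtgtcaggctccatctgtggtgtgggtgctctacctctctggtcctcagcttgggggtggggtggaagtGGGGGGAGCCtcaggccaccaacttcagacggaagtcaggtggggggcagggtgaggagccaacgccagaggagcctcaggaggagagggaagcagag

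*Lif* held 1 AP-1 match, 228 bases before its start, 1 NFAT core and 4 κB matches, and *Csf1* held 3 NFAT cores and 5 κB matches with no AP-1 match. In *Csf1*, 2 overlapping κB matches, 155 and 154 bases before the start, shared letters with an NFAT core. Of the 7 genes with a RefSeq window (all but *Osm*), *Lif* and *Il9* held an AP-1 match, *Il2* and *Areg* a TATA match, and none a STAT match. Of all 32851 windows in the table, 7.81% held the AP-1 letters, 61.3% the NFAT core, 8.30% the STAT letters, 50.8% the κB letters and 13.6% the TATA letters.

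*Lif* and *Osm* lie side by side on chromosome 11 (mm10, 4257568 to 4272514 and 4236785 to 4241026), 16541 bases apart. *Csf2* (54247270 to 54249899) and *Il3* (54265085 to 54267279) form another pair on that chromosome, 15185 bases apart. *Il2* (37120716 to 37125954) and *Csf1* (107741048 to 107760469) are on chromosome 3, *Il9* (56479277 to 56482246) on chromosome 13 and *Areg* (91139615 to 91148432) on chromosome 5. None of the 8 overlapped another listed gene. Overlap with transcripts that are not listed could not be checked.

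The naive cells held 1 of the 8 messages at more than a trace, *Osm*, and the effector cells held 3 abundant ones, *Lif*, *Osm* and *Csf1*. Summed over the 8 genes, FPKM was 17.2 and 18.3 in naive cells, rose to 244 and 253 in the Th1 libraries and to 263 and 265 in the Th17 libraries, and was highest in Th2, at 412 and 377. *Osm* made up 94.3% and 91.0% of the naive sum. *Lif* made up 82.7% and 83.1% of the Th2 sum and 65.4% and 64.2% of the Th17 sum. In Th1, *Csf1* made up 37.5% and 45.0%, *Osm* 36.3% and 34.8% and *Lif* 24.0% and 18.6%. FPKM is per exon length, so the shares compare genes within a library. The other 5 genes together added little to any sum, and the highest of them, *Csf2*, reached 1.89% in Th17.

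**Figure D1:**
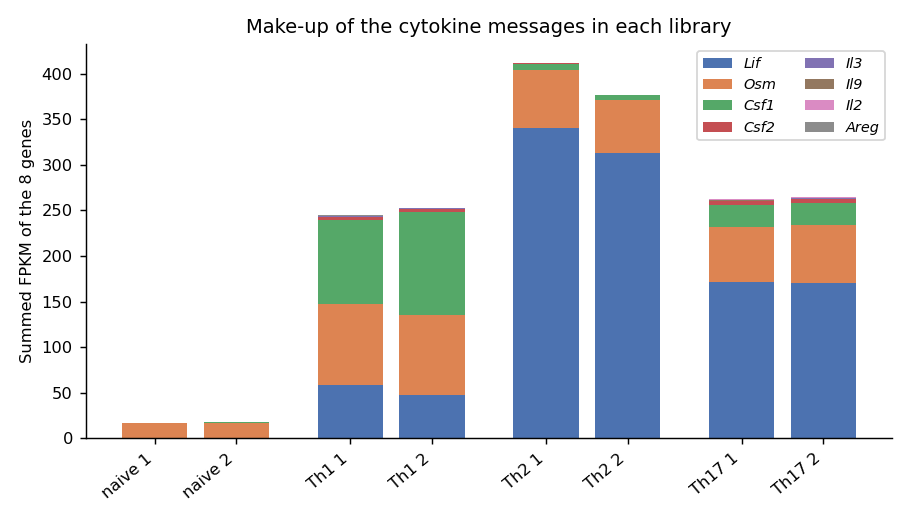
Stacked bars give the FPKM of the 8 cytokine genes summed in each of the 8 libraries (y axis, FPKM; x axis, group and replicate). Osm fills the naive bars of 17.2 and 18.3, Lif fills most of the Th2 and Th17 bars, and Csf1 is wide only in the Th1 bars.

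Differences between groups were tested with limma on log2(FPKM + 1) for the 11198 genes whose FPKM averaged at least 1 over all libraries. *Csf1*, *Csf2*, *Lif* and *Osm* passed this filter. *Il2*, *Il3*, *Il9* and *Areg* fell below it and are given as values, with no test. *Csf1*, *Csf2* and *Lif* passed through their effector levels only, as their naive means were under an FPKM of 1, so their number above the naive cells was set in part by the filter. *Csf2* passed through Th1 and Th17 only, with a mean of 0.396 in Th2, so its calls above Th2 were also set in part by the filter. Likewise, a gene of the lists described further on that was near 0 in some groups passed only through the groups where it was high. Against naive cells, 4 of the 4 tested genes were higher in Th1, where 33.8% of all genes tested were called higher. In Th2, 3 of the 4 were higher, against 31.8% of all genes, and in Th17 4 of the 4, against 37.5%. None was lower, a direction called for 33.5%, 38.7% and 29.8% of all genes in Th1, Th2 and Th17. On this scale the median difference over all genes tested was -0.01 for Th1, -0.11 for Th2 and 0.08 for Th17 against naive cells.

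**Figure D2:**
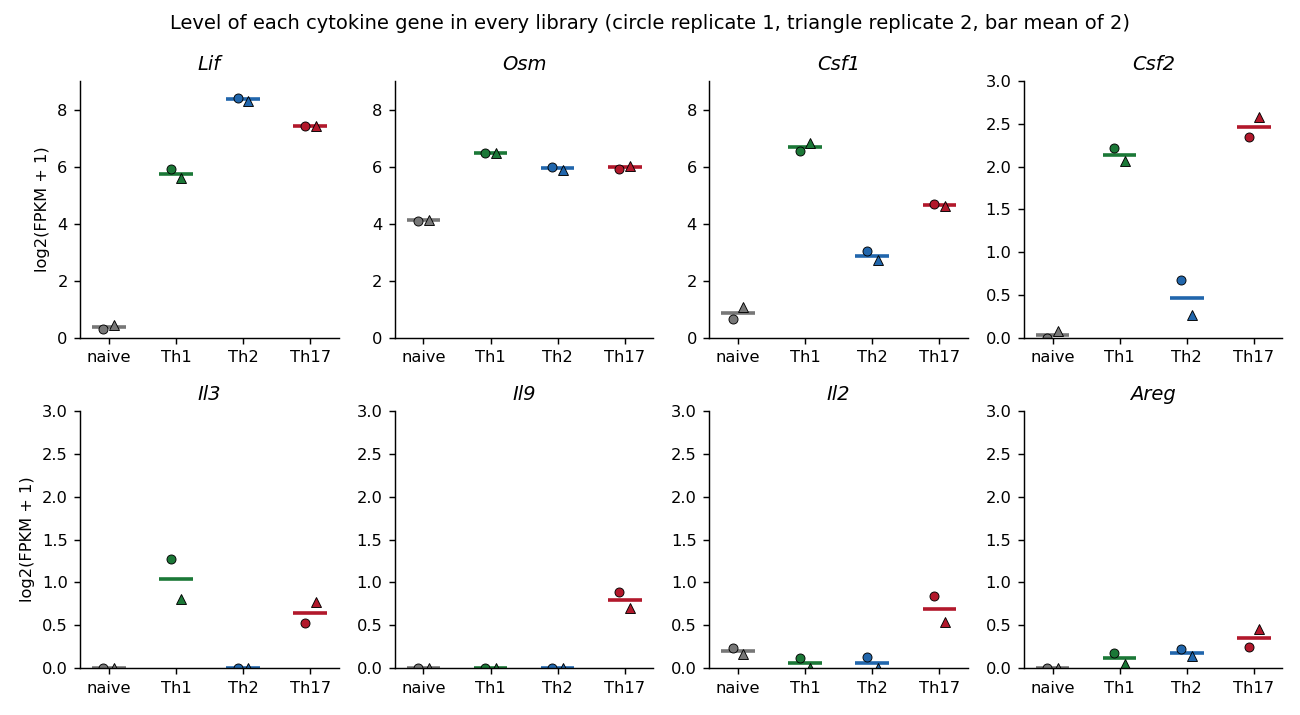
Each panel gives 1 gene's level as log2(FPKM + 1) in every library (y axis) by group (x axis), with a circle for replicate 1, a triangle for replicate 2 and a bar for the mean of 2. The y axes differ: Lif, Osm and Csf1 run to 9 and the other 5 genes to 3. Lif is highest in Th2, Csf1 in Th1, and Il9 is above 0 only in Th17.

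*Lif*, which encodes leukemia inhibitory factor, was the most abundant of the 8 messages in Th2 and Th17. Naive libraries had an FPKM of 0.231 and 0.354, Th1 58.7 and 47.0, Th17 172 and 170, and Th2 341 and 313. No 2 groups overlapped, and the order from low to high was naive, Th1, Th17 and Th2. The means of 0.292 ± 0.0873, 52.9 ± 8.23, 171 ± 1.22 and 327 ± 19.4 (SD, n = 2) put Th1 181-fold, Th17 585-fold and Th2 1119-fold above naive. The log2(FPKM + 1) differences from naive cells were 5.37 (SE 0.13, limma adjusted p = 2.47e-07) for Th1, 7.06 (adjusted p = 1.20e-07) for Th17 and 7.99 (adjusted p = 6.50e-08) for Th2. By absolute size, these were the 82nd, 25th and 17th differences among the 11198 genes tested. Each step of the order also differed, with Th1 below Th17 by 1.68 (adjusted p = 0.000157) and Th17 below Th2 by 0.93 (adjusted p = 0.00161). The summed myeloid markers were also highest in Th2, at up to 34.4, and the part of such cells in the difference was not tested.

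*Osm*, which encodes oncostatin M, was the only gene of the 8 above an FPKM of 1.12 in a naive library. Naive libraries had an FPKM of 16.2 and 16.7, Th1 88.8 and 88.0, Th2 63.1 and 57.7, and Th17 59.9 and 64.1. The naive libraries were below all effector libraries, the Th1 libraries were above all others, and Th2 and Th17 overlapped. The means were 5.38-fold (Th1), 3.68-fold (Th2) and 3.77-fold (Th17) the naive mean of 16.4 ± 0.334 (SD, n = 2). On the log2(FPKM + 1) scale, Th1 was above naive by 2.36 (SE 0.09, limma adjusted p = 1.28e-06), Th2 by 1.82 (adjusted p = 3.41e-06) and Th17 by 1.85 (adjusted p = 3.30e-06). Th1 exceeded Th2 by 0.54 (adjusted p = 0.00333) and Th17 by 0.51 (adjusted p = 0.00734). Between Th17 and Th2 the difference was 0.04, with a 95% interval of -0.18 to 0.25 (adjusted p = 0.767), and its sign turned with the scaling of the libraries. *Lif* and *Osm*, although neighbours, thus stood in opposite order between Th1 and Th2: per library, the ratio of *Lif* to *Osm* FPKM was 0.661 and 0.534 in Th1 and 5.40 and 5.43 in Th2.

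*Csf1*, which encodes M-CSF, the growth factor of macrophages, was highest in Th1. Its FPKM was 0.579 and 1.12 for naive, 7.15 and 5.63 for Th2, 24.6 and 23.5 for Th17, and 91.7 and 114 for Th1. No 2 groups overlapped, and the order was naive, Th2, Th17 and Th1. Th1 was 121-fold, Th17 28.4-fold and Th2 7.54-fold above the naive mean, and Th1 was 16.1-fold above Th2 and 4.27-fold above Th17. The log2(FPKM + 1) differences from naive cells were 5.82 (SE 0.18, limma adjusted p = 5.26e-07) for Th1, 3.78 (adjusted p = 3.03e-06) for Th17 and 2.01 (adjusted p = 6.01e-05) for Th2. Th1 exceeded Th2 by 3.81 (adjusted p = 1.31e-05) and Th17 by 2.04 (adjusted p = 0.000323), and Th17 exceeded Th2 by 1.77 (adjusted p = 0.000525). The Th1-against-Th2 difference ranked 93rd by absolute size among all genes tested.

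The reverse order of *Csf1* and *Lif* among the subsets also shows in their ratio. Per library, *Lif* stood at 0.640 and 0.414 of *Csf1* in Th1, 6.98 and 7.23 times *Csf1* in Th17, and 47.7 and 55.7 times *Csf1* in Th2. In the naive libraries, where both are low, the ratio was 0.398 and 0.317.

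*Csf2*, which encodes GM-CSF, was low in FPKM but separated Th1 and Th17 from Th2. Its FPKM was 0 and 0.0529 for naive, 0.593 and 0.200 for Th2, 3.65 and 3.18 for Th1, and 4.08 and 4.99 for Th17. For this gene the confidence intervals give whole numbers of fragments, 0 and 1 for naive, 15 and 5 for Th2, 93 and 77 for Th1, and 109 and 100 for Th17. The effector libraries were all above the naive ones, and Th2 lay below Th1 and Th17. On depth-adjusted fragments Th1 was 8.60-fold above Th2 (95% counting interval 5.39 to 14.4) and Th17 11.2-fold above Th2 (7.10 to 18.8). Against the 1 naive fragment, Th1 was 129-fold (22.9 to 5144), Th17 169-fold (30.1 to 6722) and Th2 15.1-fold (2.41 to 624) higher. The intervals cover counting error only. On the log2(FPKM + 1) scale, Th1 exceeded naive by 2.10 (SE 0.17, limma adjusted p = 3.85e-05) and Th2 by 1.67 (adjusted p = 0.000317), and Th17 exceeded them by 2.43 (adjusted p = 1.68e-05) and 2.00 (adjusted p = 0.000228). *Csf2* passed the filter through Th1 and Th17 only, so these calls were set in part by the filter. Th2 against naive missed the threshold, at 0.43 (95% interval 0.04 to 0.82, adjusted p = 0.0515), and passed it in 6 of 18 alternatives. Th1 against Th17 gave -0.32 (95% interval -0.72 to 0.07, adjusted p = 0.213), while the ratio of fragments, Th17 over Th1, was 1.31 with a counting interval of 1.06 to 1.61.

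Between the subsets, 3 of the 4 tested genes were higher in Th1 than in Th2 and 1 was lower, where 27.4% of all genes tested were higher and 16.9% lower. The higher genes include *Csf2* here and in Th17 against Th2, calls set in part by the filter. In Th17 against Th2, 2 were higher and 1 lower, against 31.7% and 12.0% of all genes, and in Th1 against Th17, 2 were higher and 1 lower, against 9.17% and 16.0%. The gene that went the other way was *Lif* each time. The comparisons share libraries, so these counts are not independent of each other. Taken within 1 replicate number at a time, the differences past the threshold ran from 0.45 for *Osm* (Th1 against Th17, replicate 2) to 8.12 for *Lif* (Th2 against naive, replicate 1) in absolute size. The libraries of the groups compared did not overlap in any of them, so their signs were fixed in advance. They say nothing about the difference in *Mpo* and *Elane* between the replicates.

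**Figure D3:**
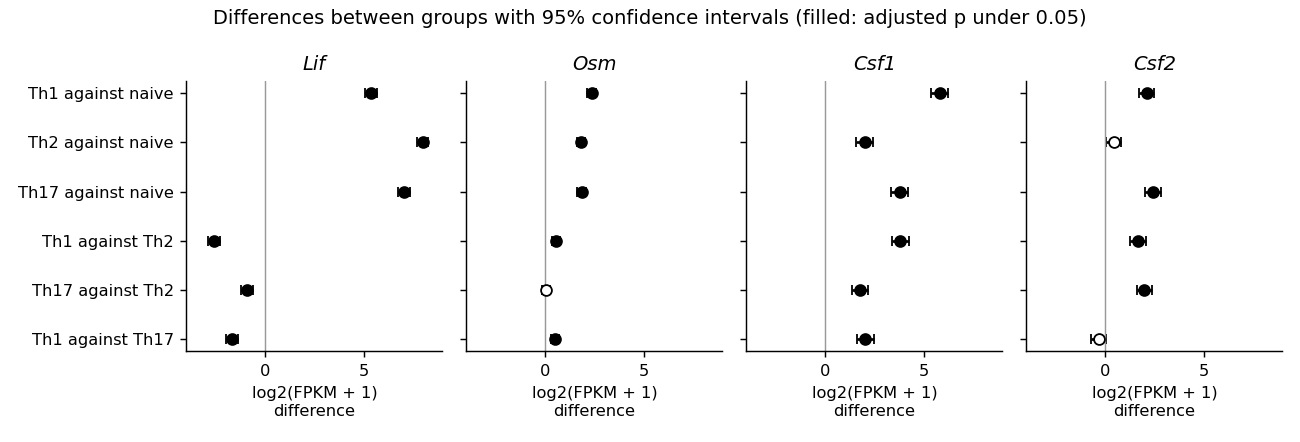
Points give the log2(FPKM + 1) difference (x axis) for Lif, Osm, Csf1 and Csf2 in the 6 comparisons (y axis), with 95% confidence intervals from limma; filled points have an adjusted p under 0.05. Lif lies left of 0 in the 3 comparisons between subsets and Csf1 right of 0, and the open points are Csf2 in Th2 against naive and in Th1 against Th17, and Osm in Th17 against Th2.

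The other 4 cytokines were rare messages. For them too the intervals gave whole fragments, within 0.02, and a count of 0 allows up to 3 fragments in a library. The counting intervals of their ratios pool the 2 libraries of a group. As for *Csf2*, they cover counting error only and not the spread between libraries. *Il3*, a colony-stimulating factor of many myeloid lineages, was at FPKM 0 in both naive and both Th2 libraries, 1.41 and 0.742 in Th1 (28 and 14 fragments) and 0.433 and 0.706 in Th17 (9 and 11 fragments). Taking 3 fragments per library as the floor, Th1 was at least 5.28-fold higher than naive and at least 6.97-fold higher than Th2, and Th17 at least 2.79-fold and at least 3.69-fold. Th1 stood 1.97-fold above Th17 (counting interval 1.13 to 3.55), and the lower Th1 library, at 0.742, was close to the higher Th17 one, at 0.706. *Il3* and its neighbour *Csf2* were thus both at 0 or 1 fragment in naive libraries and both higher in Th1 and Th17 than in Th2.

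*Il9* was found in Th17 only, at FPKM 0.843 and 0.623 (9 and 5 fragments), and at 0 fragments in the other 6 libraries. The bound was at least 1.85-fold above naive, at least 2.37-fold above Th1 and at least 2.44-fold above Th2, so expression in those groups under a floor of 0.294 to 0.397 FPKM per library was not detectable at this depth. *Il2* was highest in Th17 as well, at 0.795 and 0.446 (19 and 8 fragments). It stood at 0.177 and 0.118 in naive (3 and 2 fragments), at 0.0877 and 0 in Th1 and at 0.0883 and 0 in Th2 (2 and 0 fragments each). Th17 exceeded naive 4.38-fold (counting interval 1.66 to 14.6), Th1 14.4-fold (3.61 to 125) and Th2 14.5-fold (3.65 to 126), whereas naive and Th1 gave a ratio of 3.28 with an interval of 0.537 to 34.5 that holds 1.

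*Areg* was at 0 in both naive libraries, at 0.131 and 0.0344 in Th1 (4 and 1 fragments), at 0.165 and 0.1001 in Th2 (5 and 3 fragments), and at 0.187 and 0.375 in Th17 (6 and 9 fragments). Th17 was at least 2.12-fold above naive and 3.19-fold above Th1 (counting interval 1.10 to 11.2), and 2.02-fold above Th2 with an interval of 0.803 to 5.49. With so few fragments, Th1 and Th2 could not be separated, at a ratio of Th2 to Th1 of 1.58 (0.456 to 6.15). Both Th17 libraries were thus the highest for *Il2*, *Il9* and *Areg*, each at an FPKM under 1.

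**Figure D4:**
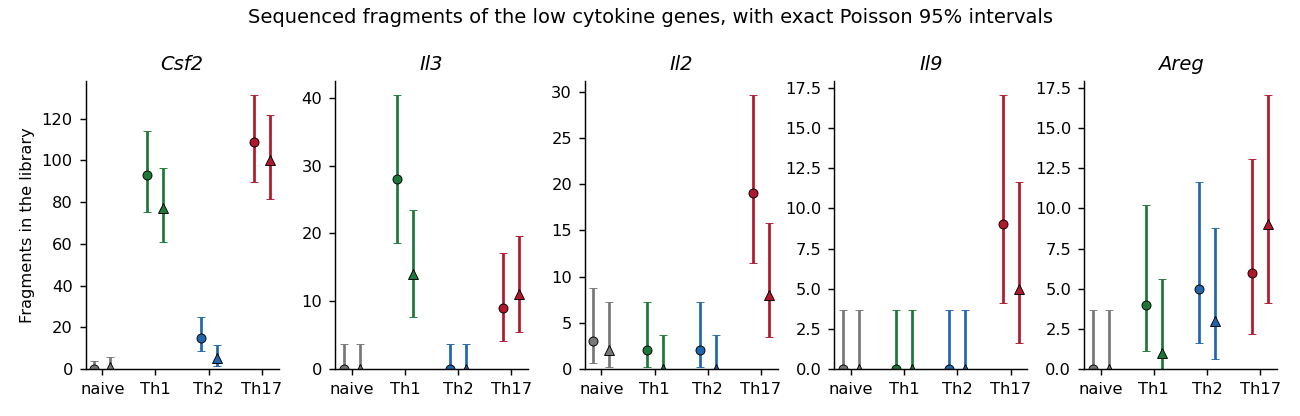
Points give the number of sequenced fragments (y axis) of Csf2, Il3, Il2, Il9 and Areg in each library by group (x axis), with exact Poisson 95% intervals; circles are replicate 1 and triangles replicate 2, and each panel has its own scale. Il9 has fragments in Th17 only (9 and 5) and Il3 in Th1 and Th17 only.

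The receptor chains ranged from very abundant, for those of IL-2 in effector cells, to near 0 for those particular to IL-9, LIF and oncostatin M, with others in between. For IL-2, *Il2ra* (the α chain) had a mean FPKM of 5.11 ± 0.791 in naive cells against 608 ± 5.20 (Th1), 716 ± 101 (Th2) and 843 ± 30.9 (Th17; SD, n = 2), and rose by 7.12 on the log2(FPKM + 1) scale in Th17 against naive (SE 0.14, limma adjusted p = 1.51e-07). *Il2rb* rose from 12.8 ± 5.69 to 402, 408 and 374 in Th1, Th2 and Th17, whereas *Il2rg* fell from 410 ± 8.11 to 299, 260 and 323 (adjusted p = 0.0183, 0.00343 and 0.0495). The call for *Il2rg* was kept in 18 of 18 alternatives in Th2, in 16 in Th1 (adjusted p up to 0.113) and in 9 in Th17 (up to 0.246). All 3 chains of this receptor were therefore abundant in effector cells whose own *Il2* message was at most 0.795. *Il6st*, the gp130 chain that *Lif* and *Osm* share, fell from 37.0 ± 8.32 in naive to 16.5 ± 4.32 in Th1, 14.5 ± 1.54 in Th2 and 2.26 ± 0.617 in Th17, a difference of -3.54 for Th17 (SE 0.23, adjusted p = 1.35e-05). Their partner chains *Lifr* and *Osmr* did not exceed 0.0835 and 0.321 in any library.

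The receptor of M-CSF, *Csf1r*, was at 3.52 ± 0.449 in naive and at 0.187 in Th1, 0.915 in Th2 and 0.724 in Th17. Both naive libraries were above all effector libraries, and *Csf1r* was lowest in Th1, the group with the highest *Csf1*. It passed the filter only through the naive group and is itself 1 of the 6 myeloid markers, so its values are given with no test. *Il3ra* rose to 10.8, 14.0 and 19.4 in Th1, Th2 and Th17 from 3.42, and *Csf2ra* reached 4.54 ± 1.02 in Th17 against 1.54 ± 0.231 in naive, a rise of 1.12 (SE 0.15, limma adjusted p = 0.000472). The shared β chain *Csf2rb* was at 0.146 in naive, 0.468 in Th1, 2.98 in Th2 and 3.83 in Th17, and passed the filter only through Th2 and Th17, so no test is given for it. Both Th2 libraries, with little *Il3* or *Csf2*, were above both Th1 libraries. Myeloid cells also express this chain, and their 6 markers summed to 25.4 to 34.4 in Th2 and 10.2 to 11.6 in Th1. That sum was 19.3 to 19.5 in Th17, where *Csf2rb* was highest, and 13.2 to 14.5 in naive, where it was lowest. The 5 dendritic cell markers summed to 2.72 to 2.82 in Th2, 1.22 to 1.36 in Th1, 3.88 to 3.90 in Th17 and 0.728 to 0.815 in naive. The part of such cells in the levels of *Csf2rb* was not tested. *Il9r* did not exceed 0.396, and *Egfr*, the receptor of amphiregulin, was at 0 in naive, 0.162 in Th1, 0.149 in Th2 and 1.60 ± 0.162 in Th17. Of the 13 chains, 8 passed the filter. Against naive cells, 4 of these rose and 3 fell in Th1, and 5 rose and 3 fell in Th2 and in Th17. *Csf2rb* and *Csf1r* are among the 8, so these counts and the medians below were set in part by the filter. Over all genes tested, 33.8%, 31.8% and 37.5% were higher and 33.5%, 38.7% and 29.8% lower in Th1, Th2 and Th17, the shares against which this and the following lists are set. The median difference over the 8 was 0.21, 1.08 and 1.60, beside -0.01, -0.11 and 0.08 over all genes. With quantile normalization it turned to -0.41 in Th1, where 3 then rose and 5 fell, and was 0.60 in Th2 and 0.89 in Th17, beside -0.13, -0.13 and -0.12 over all genes.

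**Figure D5:**
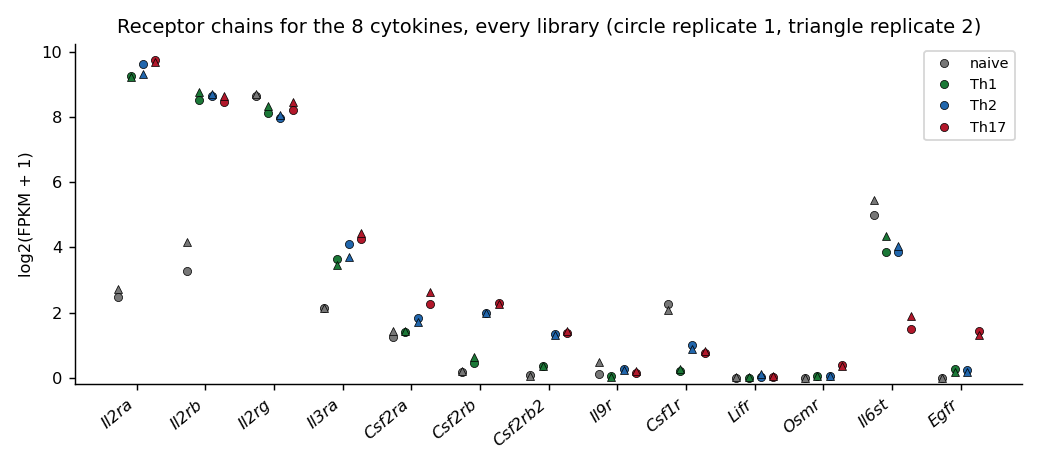
Points give the level of the 13 receptor chains for the 8 cytokines in every library as log2(FPKM + 1) (y axis), colored by group; circles are replicate 1 and triangles replicate 2. Il2ra and Il2rb are far higher in the effector groups than in naive, Il6st is lowest in Th17, and Il9r, Lifr and Osmr lie near 0 in all groups.

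Most ligands that share these receptors were rare. Of 17, only 5 passed the filter: *Il4*, *Il5*, *Il21*, *Hbegf* and *Clcf1*. Against naive cells 3 of the 5 rose in Th1, 4 in Th2 and 3 in Th17, a number set in part by the filter since *Il4*, *Il5*, *Il21* and *Hbegf* were near 0 in naive cells, and *Clcf1*, a further gp130 ligand, fell in each, from 71.9 ± 2.56 to 12.8, 13.4 and 11.2. *Il5*, which shares the β chain with IL-3 and GM-CSF, was at 10.7 ± 0.104 in Th2 and at most 0.218 in any other library, and *Il4* was at 113 ± 22.2 in Th2. *Il21*, 96805 bases from *Il2*, followed another order, with 0.0533 in naive, 6.48 in Th1, 20.6 in Th2 and 41.7 in Th17. *Hbegf*, which like amphiregulin binds the EGF receptor, rose from 0.0404 in naive to 21.7 ± 1.24 in Th1 (difference 4.44, SE 0.10, limma adjusted p = 2.07e-07), 10.1 in Th2 and 11.0 in Th17. *Ereg*, the nearest listed gene to *Areg*, was at 0 in every library, as was *Il7*. *Il34*, the second ligand of the M-CSF receptor, was at 0.665 ± 0.0603 in Th1 and at most 0.0409 in any other library.

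All 14 genes listed for release and signaling were tested. Against naive cells, 6 rose and 4 fell in Th1, 9 rose and 3 fell in Th2 and 8 rose and 2 fell in Th17, with median differences of -0.02, 1.06 and 0.91. The shares that rose were 42.9%, 64.3% and 57.1%, beside 33.8%, 31.8% and 37.5% of all genes, and those that fell 28.6%, 21.4% and 14.3%, beside 33.5%, 38.7% and 29.8%. *Furin*, a protease that trims precursor proteins, followed the order of *Csf1*, at 12.1 ± 2.16 in naive, 360 ± 103 in Th1, 24.3 ± 2.29 in Th2 and 84.8 ± 22.5 in Th17. *Adam17*, the sheddase that frees membrane-bound EGF family ligands, went from 15.8 in naive to 12.3, 9.72 and 12.7. *Cish* and *Socs2*, feedback genes induced by STAT5, rose in all 3 subsets, with *Socs2* by 6.11 (SE 0.10, adjusted p = 6.68e-08) and *Cish* by 3.93 in Th2 (adjusted p = 5.33e-07). With a naive mean of 0.842, *Socs2* passed the filter through the effector groups only. Its calls and the numbers that rose were thus set in part by the filter.

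Of 22 transcription factors known to act on cytokine promoters in T cells, 19 were tested, and rises and falls were about even. Against naive cells, 8 rose and 9 fell in Th1, 9 rose and 9 fell in Th2 and 8 rose and 7 fell in Th17. That is 42.1%, 47.4% and 42.1% higher and 47.4%, 47.4% and 36.8% lower, beside 33.8%, 31.8% and 37.5% higher and 33.5%, 38.7% and 29.8% lower over all genes, and the median differences were -0.17, -0.27 and -0.11. The largest were *Batf3* (7.82 in Th17, SE 0.16, limma adjusted p = 1.75e-07), *Bhlhe40* (6.74 in Th17), *Irf4* (6.01 in Th2) and *Fosl2* (4.88 in Th17). The naive means of *Batf3*, *Bhlhe40* and *Fosl2* were 0.129, 0.820 and 0.754, so these genes passed the filter through effector groups only. Their calls above naive and the numbers that rose were therefore set in part by the filter. BATF3 and FOSL2 are AP-1 family factors, and IRF4 can bind together with BATF factors. For *Bhlhe40*, Th1 and Th17 exceeded Th2 by 0.88 (adjusted p = 0.0313) and 1.08 (adjusted p = 0.0151). Its Th2 libraries stood apart, at FPKM 67.5 and 121, and the differences were 0.46 and 0.67 without Th2 replicate 1 and 1.29 and 1.50 without Th2 replicate 2. The Th1 call was kept in 12 of 18 alternatives (adjusted p up to 0.135, without Th1 replicate 2) and was lost without Th1 replicate 1 (0.0853) and without Th2 replicate 1 (0.0805), and the Th17 call was kept in 17 and lost without Th17 replicate 2 (0.0946).

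Of the factors that read AU-rich stretches or otherwise act on mRNA decay, the 3 *Zfp36* family genes fell in all 3 subsets. *Zfp36* went from 217 ± 2.99 in naive to 49.9 ± 5.67 in Th1, 74.5 ± 17.3 in Th2 and 34.9 ± 5.52 in Th17. *Zfp36l1* went from 103 ± 1.96 to 24.3, 22.4 and 14.8, and *Zfp36l2* from 346 ± 24.7 to 51.5, 156 and 79.4 (mean FPKM ± SD, n = 2). All 9 of these differences passed, from -1.14 for *Zfp36l2* in Th2 to -2.72 for *Zfp36l1* in Th17 (limma adjusted p = 1.32e-05). Over the 8 factors tested, 0 rose and 5 fell in Th1, 0 rose and 6 fell in Th2, and 1 rose and 4 fell in Th17, the riser being *Zc3h12a* (0.66, adjusted p = 0.00532). Over all genes, 33.5%, 38.7% and 29.8% fell and 33.8%, 31.8% and 37.5% rose, and the median differences of the 8 factors were -0.69, -0.76 and -0.63. With the libraries scaled to a common median, 1 rose and 5 fell in Th1 and 1 rose and 4 fell in Th2, the latter with quantile normalization as well. *Khsrp* (35.6 in naive and 44.8, 44.3 and 44.5 in Th1, Th2 and Th17) and *Hnrnpd* (24.5 in naive and 24.7, 24.7 and 22.8) passed in none of the 3 comparisons with naive cells. The windows printed above were thus present in messages whose levels ranged from 0 to 341 FPKM.

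Within 100 kb of the 8 genes 15 other genes were listed, of which 7 passed the filter. Against naive cells, 6 of these rose and 1 fell in Th1, 4 rose and 1 fell in Th2 and 6 rose and 0 fell in Th17. *Il21* and *Acsl6* are among the 7 and were near 0 in naive cells, so the numbers that rose were set in part by the filter. The shares that rose were 85.7%, 57.1% and 85.7%, beside 33.8%, 31.8% and 37.5% of all genes, and with median scaling 6 rose and 0 fell in Th2. Beside *Osm* and *Lif*, *Gatsl3* (14376 bases from *Osm*) rose from 10.3 ± 0.585 to 50.4 ± 2.12 in Th1, 103 ± 8.12 in Th2 and 81.1 ± 6.29 in Th17, the order of *Lif* (difference in Th2 3.19, SE 0.11, limma adjusted p = 5.76e-07). Beside *Il3*, *Acsl6* (36545 bases away) was at 0.0464 in naive, 4.45 ± 0.119 in Th1, 0.555 ± 0.0657 in Th2 and 3.39 ± 0.0182 in Th17. It passed the filter only through Th1 and Th17, so no test is given for it, and the libraries of both groups were above those of naive and Th2, as for *Csf2* and *Il3*.

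The genes whose pattern over the 8 libraries was most like each tested cytokine gene were named by Pearson's r on log2(FPKM + 1), as a description over libraries that share groups. For *Lif* these were *Gipr*, *Arhgef25* and *Tgm1* (r = 0.998 to 0.999), with *Gipr* at a mean FPKM of 0.0275, 25.7, 116 and 65.1 in naive, Th1, Th2 and Th17 cells. For *Csf1* they were *Wdfy1*, *Tex15* and *Stk39* (r = 0.994 to 0.995), and *Tex15* stood at 0.0187, 6.10, 1.16 and 2.66 in the same order of groups. For *Csf2* they were *Ghdc*, *Fah* and *Wdr60* (r = 0.992 to 0.996), with *Fah* at 0.808, 24.6, 2.87 and 41.2. For *Osm* they were *Cenpa*, *Trim16* and *Hbegf* (r = 0.9989 to 0.9995), and *Cenpa*, a histone of the centromere, stood at 11.5, 92.2, 58.4 and 60.5.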

How the data were processed

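Total RNA of 8 libraries, 2 in each of 4 groups named by the labels, was sequenced with 50-base reads. Alignment by the authors used Bowtie 0.12.8 and TopHat 1.3.2 on mm10, and Cufflinks 2.0.2 gave FPKM per gene. The authors deposited FPKM with a confidence interval and a status per library. The gene annotation is not given in the sources used here. The methods name a kit that does not keep strand and the labels name a stranded one.

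Values of a symbol were summed over its entries. FPKM was tested as log2(FPKM + 1) for the 11198 genes whose FPKM averaged at least 1, in one limma model (version 3.58.1, R 4.3.3; lmFit, contrasts.fit, eBayes with a mean-variance trend) of the 4 groups and 8 libraries. Tests were two-sided, with Benjamini-Hochberg adjustment over all genes tested and a threshold of 0.05. An exact permutation test of 2 against 2 libraries cannot go below p = 0.333, so none was used. The pseudocount of 1 shrinks the change of a low gene.

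Fragments were recovered from the interval as the square of 2 FPKM over its upper arm. Of the 64 values of the 8 genes, 41 were whole within 0.02, and 15 of those were 0. They were used for *Il2*, *Il3*, *Il9*, *Csf2* and *Areg* and not for *Csf1*, *Lif* and *Osm*, where they were not whole throughout. Ratios of fragments were adjusted for depth and have exact 95% intervals. Of 6 housekeeping genes, 0 were listed at 0 in any library.

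Named genes were the 8 cytokines, up to 4 genes of each list with the largest absolute difference, and list genes needed beside a cytokine. *Il2rg* and *Bhlhe40* were followed through each alternative after their values were seen. The cytokines, lists and tests were chosen with earlier results of these data known. *Sfpi1* and *Emr1* are the listed symbols of *Spi1* and *Adgre1*, and *Trac* and *Ly6g* were not listed. Pentamers were counted in 3′UTRs of GENCODE M21 and promoter windows came from RefSeq (GRCm38.p6). The model was tested on simulated data. Alternatives are given in the closing section.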

Additional observations from a re-analysis of the deposited data

Results flagged for a closer look

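The 4 tested cytokine genes differed between effector subsets by a test of the difference itself, taken directly between 2 subsets in log2(FPKM + 1) units. The test was limma with Benjamini-Hochberg adjustment and 2 libraries a group. *Csf1* was higher in Th1 than in Th2 by 3.81 (adjusted p = 1.31e-05) in 2 of 2 libraries. *Lif* went the other way, at -2.61 for Th1 against Th2 (adjusted p = 1.39e-05). *Csf2*, which passed the filter through Th1 and Th17 only, was higher in Th17 than in Th2 by 2.00 (adjusted p = 0.000228). *Osm* was higher in Th1 than in Th2 by 0.54 (adjusted p = 0.00333).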

How the results depend on the processing

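Over 18 alternatives, 8 of them leaving out 1 library each, the 4 tested cytokine genes gave 432 values, of which 422 neither changed sign nor crossed the threshold. *Csf2* in Th2 against naive, at adjusted p = 0.0515, passed in 6 of them: with a pseudocount of 0.1 (1.88, adjusted p = 0.00593), with genes kept at an FPKM of at least 1 in 2 libraries (0.43, 0.0404), with median scaling (0.46, 0.0438), without the mean-variance trend (0.43, 0.0446), with genes of status OK only (0.43, 0.0496) and without Th2 replicate 2 (0.63, 0.0137). The adjusted p ranged from 0.00593 to 0.710 over the alternatives. *Osm* in Th17 against Th2, at 0.04, turned to -0.15 with median scaling, -0.094 with quantile normalization and -0.027 and -0.011 without Th2 or Th17 replicate 2, never past the threshold, with a range of -0.027 to 0.10 over the left-out libraries. The cause was not tested.

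With no filter on low values, all 8 cytokine genes were called in Th17 against naive in place of 4, 6 in place of 3 in Th17 against Th2 and 5 in place of 3 in Th1 against Th17, since the 4 rare genes then entered the test. Of all 18125 genes in that setting, 5610 were called higher and 3962 lower in Th17 against naive. The numbers were 4183 and 1666 in Th17 against Th2, and 1213 and 2611 in Th1 against Th17. The 4 rare genes were at 0 to 3 fragments a library in naive cells, so no p-values are given for them.

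Leaving out 1 library each, the number of all genes called was 3106 to 4936 for Th1 against Th2 (4961 with all libraries), lowest without Th1 replicate 2 (3106) and Th2 replicate 2 (3208). It was 2738 to 4876 for Th17 against Th2 (4885), lowest without Th17 replicate 2 (2738) and Th2 replicate 2 (3037). It was 1558 to 2759 for Th1 against Th17 (2815), with 1708 and 1558 without Th1 replicate 1 and 2 and 1734 and 1629 without Th17 replicate 1 and 2. A lone library is then assumed to vary like the other groups.

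Scaling changed the balance of all calls. Higher genes made up 72.6% of the calls in Th17 against Th2, and 53.3% with median scaling and 50.7% with quantile normalization. They made up 36.5%, 48.1% and 49.7% in Th1 against Th17, 61.8%, 52.8% and 50.9% in Th1 against Th2, and 55.7%, 53.4% and 44.2% in Th17 against naive.

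Same-numbered libraries had correlations of 0.138 to 0.294 between their replicate differences in the 6 pairs of groups, but nothing in the labels says that a number marks a shared culture or day. In a fit with replicate as a block, the cytokine genes called were 4, 3, 4, 4, 3 and 3 over the 6 comparisons, as without it, and *Csf2* in Th2 against naive had an adjusted p of 0.0574. With the block, 4107, 3859 and 4538 of all 11198 genes were higher in Th1, Th2 and Th17 against naive, and 4170, 4709 and 3688 lower. For Th1 against Th2, Th17 against Th2 and Th1 against Th17, 3706, 4289 and 1382 were higher and 2277, 1680 and 2329 lower. The cytokine counts are in this order of comparisons. All genes called went from 2815 to 3711 in Th1 against Th17 and from 4961 to 5983 in Th1 against Th2 with the block. Depth limits the rare genes, since 0 fragments allow up to 3.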
